A study of Mus musculus with 23 samples.

Results

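The 8 genes Pf4, Ppbp, Gp1ba, Gp1bb, Gp9, Gp5, Gp6, and Treml1, which mark megakaryocytes and the platelets they release, were read by gene symbol out of 17644 genes in the TPM table and matched by gene ID to the count table. All 8 were among the 14364 genes that had at least 10 counts in at least 5 mice and were tested. RNA came from femur and tibia with the marrow removed, in 23 female C57BL6/N mice killed at 11 weeks of age, and each mouse gave 1 library. WT mice without diabetes (WT Control, n = 5) were compared with diabetic WT mice (WT T1D, n = 6), and nondiabetic mice carrying the global Sarm1 knockout by their labels (KO Control, n = 6) with diabetic mice of that label (KO T1D, n = 6). Type 1 diabetes (T1D) was induced with streptozotocin. T1D mice had been given this toxin for insulin-producing β cells in repeated injections of 100 mg/kg when 8 weeks old. They had 3 weeks of diabetes, whereas controls had been given saline. WT mice were littermates from heterozygous breeding or were purchased, and which mouse was which is not given in the sources used here. The comparisons asked whether diabetes changed these genes in WT bone, whether it changed them in Sarm1-KO bone, and whether the genotypes differed.

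Megakaryocytes are the large polyploid cells of bone marrow that assemble platelets and shed them into sinusoids. They make platelet RNA and protein before release, so platelet receptor and granule transcripts in bone serve as markers of this lineage. Pf4 and Ppbp encode chemokines stored in platelet α granules. Gp1ba, Gp1bb, Gp9, and Gp5 encode the subunits of the GPIb-IX-V complex, which binds von Willebrand factor at sites of vessel injury. Gp6 encodes a platelet collagen receptor, and Treml1 encodes a receptor that is held in α granules and reaches the surface on activation. In bulk RNA, fewer cells of a type and less RNA per cell cannot be told apart.

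The genes lie at separate loci apart from the chemokine pair (GRCm38.p6). Ppbp (chr5:90768518-90770063) and Pf4 (chr5:90772435-90773383) are neighbors on the plus strand, separated by 2371 bases. Gp1ba is at chr11:70639102-70643986 on the chromosome that carries Sarm1, 7.83 Mb from it. Gp1bb (chr16:18620319-18622403) shares 593 bases with Septin5 on the same strand, so reads from the shared bases could be assigned to either gene. The remaining genes are Gp9 (chr6:87776131-87779786), Gp5 (chr16:30307685-30310781), Gp6 (chr7:4362853-4397851), and Treml1 (chr17:48359916-48367176).

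The 250 bases before 1 RefSeq start per gene in GRCm38.p6 were searched on both strands. The search was for letters recognized by 2 factor families of the megakaryocyte lineage. The start used is not always the outermost end of the gene positions given above, and 20 bases of the Gp1ba stretch, 107 of the Gp6 stretch, and all 250 of the Gp9 stretch are inside them. The GATA motif was taken as AGATAA, with the first letter either A or T. The ETS motif was taken as AGGAAG. The GATA letters were in 3 of 8 genes (Gp1ba, Gp5, and Gp6), against 16.6% of 32851 promoters of the same length. The ETS letters were in 4 of 8 (Pf4, Gp1ba, Gp9, and Gp5), against 29.5%, and both were in Gp1ba and Gp5, against 4.72%. The sequences of the chemokine neighbors and of the 2 receptor genes that hold both motifs are given with matches in capitals. On the reverse strand the GATA letters read TTATCT or TTATCA and the ETS letters CTTCCT, and no 2 matches overlapped.
Pf4, chr5:90772185-90772434, plus strand: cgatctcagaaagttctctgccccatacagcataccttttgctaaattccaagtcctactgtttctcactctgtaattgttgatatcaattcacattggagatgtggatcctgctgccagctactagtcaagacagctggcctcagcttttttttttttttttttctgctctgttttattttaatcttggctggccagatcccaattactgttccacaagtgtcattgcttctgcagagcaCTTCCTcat
Ppbp, chr5:90768268-90768517, plus strand: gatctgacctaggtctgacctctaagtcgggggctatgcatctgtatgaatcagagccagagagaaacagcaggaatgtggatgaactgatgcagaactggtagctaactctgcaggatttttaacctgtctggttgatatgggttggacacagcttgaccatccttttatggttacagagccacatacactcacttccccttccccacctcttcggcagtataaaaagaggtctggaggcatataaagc
Gp1ba, chr11:70638872-70639121, plus strand: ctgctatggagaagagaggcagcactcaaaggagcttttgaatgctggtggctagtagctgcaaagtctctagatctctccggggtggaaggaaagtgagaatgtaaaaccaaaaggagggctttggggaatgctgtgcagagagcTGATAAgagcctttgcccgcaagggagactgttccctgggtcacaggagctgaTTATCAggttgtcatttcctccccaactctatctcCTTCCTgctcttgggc
Gp5, chr16:30310782-30311031, minus strand: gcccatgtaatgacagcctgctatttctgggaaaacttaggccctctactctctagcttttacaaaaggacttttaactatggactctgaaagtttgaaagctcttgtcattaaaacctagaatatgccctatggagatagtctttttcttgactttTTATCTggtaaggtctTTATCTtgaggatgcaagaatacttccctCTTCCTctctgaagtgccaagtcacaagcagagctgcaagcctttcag
The Ppbp, Gp1bb, and Treml1 stretches hold neither motif, although Ppbp RNA was the most abundant of the 8. These matches are letters only, and binding was not measured.

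Total counts per mouse ranged from 16938101 to 20135592, and the 8 genes together took from 0.0631% to 0.180% of them. The lowest count of any of the 8 genes in any mouse was 148 and the highest was 18734, so counting error was small beside the differences between mice. Sarm1 RNA, given here as the check of the labels, had 0.268 to 1.57 CPM (counts scaled to library size) in KO Control and 0.811 to 1.46 in KO T1D, against 0.845 to 1.76 in WT Control and 0.340 to 1.21 in WT T1D. The log2 difference of KO against WT was −0.55 ± 0.38 (SE) in Control and 0.78 ± 0.37 in T1D (edgeR, adjusted p 0.999 and 0.281), so Sarm1 RNA did not set the Sarm1-KO libraries apart, and these groups are named here by their labels. The deleted part of the gene was not counted separately, and Sarm1 had only 5 to 32 counts per mouse. By qPCR, the study reported significantly less Sarm1 in Sarm1-KO bone than in WT bone. A pair of WT T1D libraries, from mice A3905 and A3906, stood apart in RNA of other cell types. Summed TPM of 13 osteoblast and osteocyte markers was 3966 and 3472 in these mice against 37473 to 83959 in the other 21, and that of 10 B cell markers was 129 and 161 against 492 to 1164. Sums for 10 macrophage markers (960.5 and 1031 against 1092 to 1663), 8 mast cell and basophil markers (162 and 147 against 201 to 364), and 8 endothelial markers (121 and 117 against 138 to 237) were also below every other mouse. Erythroid markers (15 measured of 16) were above every other mouse at 472184 and 470887 against 235855 to 410568. Sums for 11 neutrophil and 8 skeletal muscle markers were within the range of the others, and none of the lists had a marker at or near 0. Some of these placements differed by scale. By mean log2 CPM, neutrophil markers were above every other mouse in both (10.79 and 10.60, against at most 10.58). Macrophage and endothelial markers were then within the range of the others, and mast cell and basophil markers were below it in A3906 only. Osteoblast and osteocyte, B cell, and erythroid markers stayed outside the range. The part of these differences in the results below was not tested, and results of the 8 genes and of the named wider genes for T1D in WT are given with and without the pair.

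The 8 genes spanned a wide range of abundance on the TPM scale, which corrects for transcript length. Ppbp had a mean of 1021 ± 286 TPM (SD, n = 23) and ranked 84th among the 17644 genes. Pf4 followed at 408 ± 98.1 TPM and Gp9 at 131 ± 27.4 TPM. Each of these was above the next gene in 23 of 23 mice. Gp1bb averaged 85.7 ± 19.7 TPM and Treml1 81.4 ± 23.1 TPM, and Gp1bb was the higher in 19 of 23 mice. Gp1ba averaged 50.5 ± 20.1 TPM and Gp5 50.1 ± 13.4 TPM, and their order was even less fixed, with Gp1ba the higher in 10 of 23 mice. Gp6 was the least abundant in every mouse at 18.2 ± 5.93 TPM. Thus the chemokines led, the von Willebrand factor receptor subunits spanned the middle, and the collagen receptor was last, with no fixed order inside the pairs Gp1bb and Treml1 or Gp1ba and Gp5.

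**Figure D1:**
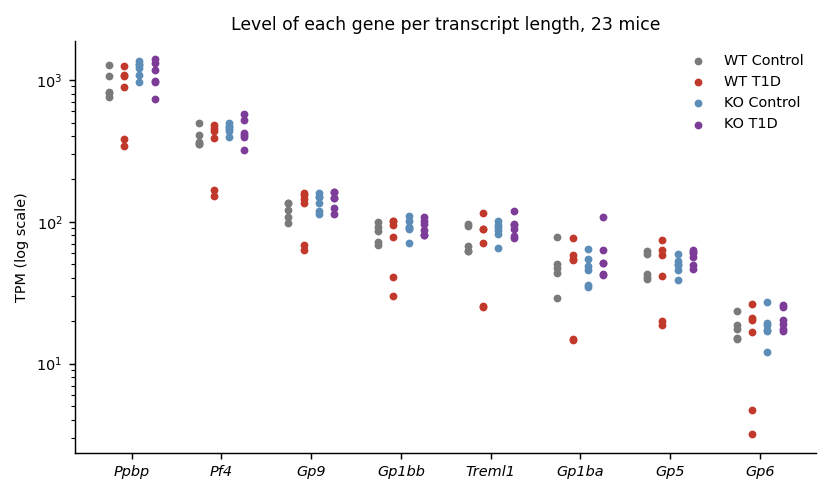
TPM of each gene on a log scale, with 1 point per mouse and the 4 groups in separate colors. Ppbp led at a mean of 1021 TPM and Gp6 was last at 18.2 TPM, and the 2 lowest WT T1D points of each gene are mice A3905 and A3906.

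Values per mouse are given next as CPM, scaled with TMM factors, which compares mice for 1 gene at a time. Pf4 was at 116, 122, 125, 156, and 176 CPM in the 5 WT Control mice. It ranged from 73.4 to 188 CPM with a median of 163 in WT T1D, from 149.9 to 179.8 CPM with a median of 161 in KO Control, and from 127 to 207 CPM with a median of 154 in KO T1D. WT T1D mice were on both sides of the controls, with 3 above all 5 controls and 2 below all 5. The 2 below were A3905 at 82.7 CPM and A3906 at 73.4 CPM. All 6 KO Control mice were above the WT Control mean of 139 CPM, although the groups overlapped.

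Ppbp, the neighbor of Pf4, was at 513, 535, 535, 798, and 893 CPM in WT Control. It ranged from 337 to 954 CPM with a median of 740.2 in WT T1D, from 714 to 935 CPM with a median of 865 in KO Control, and from 566 to 1009.6 CPM with a median of 790.1 in KO T1D. The lowest WT T1D values, 337 CPM in A3905 and 363 CPM in A3906, were again those of the same pair, and 2 other WT T1D mice were above all controls. Within mice, the ratio of Ppbp to Pf4 in TPM ran from 0.95 to 1.55 on the log2 scale.

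Among the receptor subunits, Gp1ba, which carries the von Willebrand factor binding site, was the most variable, with a coefficient of variation of 39.7% in TPM over the 23 mice against at most 32.6% for the other 7 genes. It was at 50.04, 79.6, 83.5, 83.5, and 139 CPM in WT Control. Medians were 106 CPM in WT T1D (range 35.5 to 149), 82.2 in KO Control (68.2 to 113), and 98.3 in KO T1D (74.9 to 196). The highest value of all, 196 CPM, belonged to 1 KO T1D mouse (A3683), whose nearest groupmate was at 117 CPM.

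Gp1bb, the subunit disulfide-linked to GPIbα, was at 77.8, 84.1, 104, 123, and 124 CPM in WT Control. It ranged from 50.7 to 144 CPM in WT T1D (median 118), from 92.4 to 133 CPM in KO Control (median 114), and from 104 to 138 CPM in KO T1D (median 117). Septin5, with which it shares bases, was highest in A3905 and A3906 (146 and 121 CPM, against 80.6 to 110.5 in the other 21 mice), the mice in which Gp1bb was lowest. On the TPM scale Septin5 in the pair, at 73.1 and 63.0, was inside the range of the others (53.3 to 82.0). Whether reads of the shared bases moved between these genes was not tested.

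Gp9, a small subunit needed to bring the complex to the cell surface, was at 66.3, 73.5, 80.7, 98.2, and 103 CPM in WT Control. It ranged from 70.7 to 131 CPM in WT T1D (median 113), from 75.2 to 125 CPM in KO Control (median 98.6), and from 86.5 to 120.2 CPM in KO T1D (median 106). It was the exception among the 8 genes, because no WT T1D mouse was below all controls and 3 were above all of them. Gp5, the subunit cleaved by thrombin, was at 55.2, 58.4, 58.9, 86.6, and 98.1 CPM in WT Control. It ranged from 37.2 to 119.9 CPM in WT T1D (median 81.1), from 60.5 to 89.3 CPM in KO Control (median 71.2), and from 71.9 to 92.9 CPM in KO T1D (median 90.01). Gp5 was thus within a narrow band in KO T1D and spread the widest in WT T1D, where 3 mice were above and 2 below all controls.

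Gp6 was at 20.003, 20.3, 25.4, 28.1, and 34.6 CPM in WT Control. It ranged from 8.56 to 41.4 CPM in WT T1D (median 29.1), from 19.5 to 32.3 CPM in KO Control (median 27.8), and from 25.2 to 35.1 CPM in KO T1D (median 30.1). The values in A3905 and A3906, 8.94 and 8.56 CPM, were far below the lowest value in any other mouse, 19.5 CPM. Treml1 was at 46.1, 47.7, 52.7, 75.6, and 83.5 CPM in WT Control. It ranged from 27.1 to 100.4 CPM in WT T1D (median 70.8), from 55.4 to 80.9 CPM in KO Control (median 72.6), and from 66.9 to 96.6 CPM in KO T1D (median 75.4). For both genes all 6 KO T1D mice were above the WT T1D mean (24.8 CPM for Gp6 and 64.2 CPM for Treml1). Only 2 of 6 were above the mean of the 4 WT T1D mice other than A3905 and A3906 (32.8 and 82.3 CPM), for each gene.

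**Figure D2:**
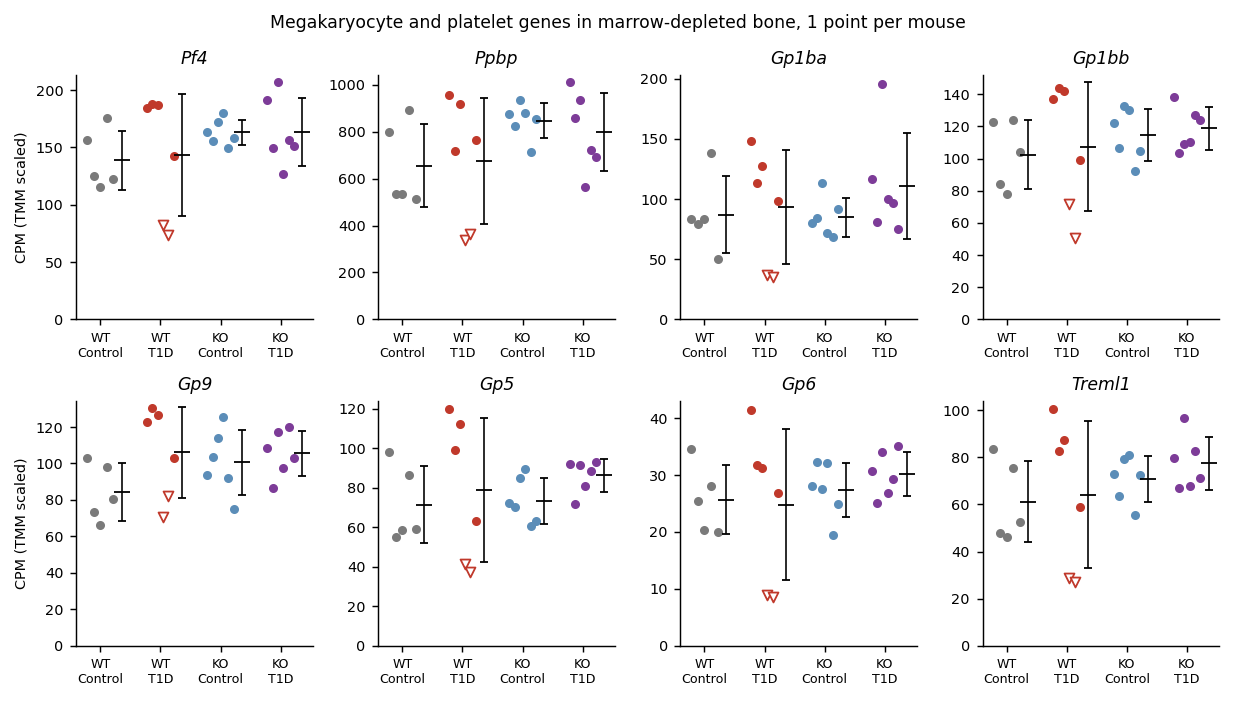
CPM of each gene by group, with 1 point per mouse and a black bar for the mean ± SD. Open triangles mark WT T1D mice A3905 and A3906, the lowest of all 23 mice for 7 of 8 genes, and no pair of groups is separated for any gene.

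With diabetes in WT bone, 0 of 8 genes changed past the test, which 2.33% of all tested genes passed (edgeR's quasi-likelihood test, Benjamini-Hochberg adjusted p under 0.05). Log2 fold changes of WT T1D against WT Control ran from −0.050 ± 0.29 (SE) for Gp6 to 0.33 ± 0.16 for Gp9. Their median was 0.069, against −0.011 over all tested genes. On the TPM scale all 8 were lower in WT T1D, from −0.51 for Gp6 to −0.065 for Gp9 (limma on log2(TPM + 1), 0 of 8 past the threshold against 35.9% of all genes), where the median of all genes was −0.24. Gp9 had the lowest p (unadjusted 0.0446, adjusted 0.211, edgeR), and it was the only one of the 8 below an unadjusted 0.05, as were 22.2% of all genes. The chemokines were at 0.042 ± 0.20 (Pf4) and 0.044 ± 0.23 (Ppbp), so their group means were nearly equal while their WT T1D mice spread from below to above all controls.

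The small mean differences of WT T1D averaged over libraries at unlike levels. In A3905 and A3906, the average was 56.2% of the WT Control mean in CPM for Pf4, 53.4% for Ppbp, 41.8% for Gp1ba, 59.6% for Gp1bb, and 54.9% for Gp5. It was 45.7% for Treml1, 34.1% for Gp6, and 90.6% for Gp9. These mice were the 2 lowest of all 23 for 7 of 8 genes, whereas 15.1% of all tested genes had both mice below the other 21. On the TPM scale they were the 2 lowest for 8 of 8 genes, at 21.9% to 55.5% of the WT Control mean. The share of all genes with both mice lowest was not counted on that scale. There the median log2 fold change of all genes for T1D in WT was −0.24 (limma on log2(TPM + 1)), against −0.011 in edgeR. In the other 4 WT T1D mice, the average was from 126% to 143% of the WT Control mean in CPM and from 112% to 124% in TPM. These 4 were not alike. The mean deviation of the 8 genes from the WT Control mean of log2(CPM + 0.5) was 0.10 in A3909. It was 0.64 in A1764, 0.45 in A1787, and 0.53 in A1758.

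Without A3905 and A3906, all 8 genes were above the controls in the WT T1D mice that remained, by 0.34 to 0.51 on the log2 scale, and 0 of 8 passed, as did 0.0% of all genes (edgeR, lowest adjusted p 0.288). In that fit 7 of 8 had an unadjusted p under 0.05 against 11.0% of all genes. The pair left out was the 2 lowest of all 23 mice for 7 of the 8 genes, so higher WT T1D means follow from leaving it out. The 8 genes also varied together, so these are not separate results. Of the 4 mice that remained, 3 had ID numbers starting with A17, a series that held only 1 WT Control mouse and no other mouse, while all others started with A36 to A39. In the A17 series, Pf4 was at 184, 187, and 188 CPM with T1D against 156 CPM in the control mouse, and Gp9 was at 123, 127, and 131 CPM against 103 CPM. Gp6 overlapped the control there (31.2, 31.8, and 41.4 CPM against 34.6 CPM), as did Ppbp (716, 916, and 954 CPM against 798 CPM) and Treml1 (82.8, 87.3, and 100.4 CPM against 83.5 CPM). With 1 control mouse in the series these differences could not be tested.

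Restricting the fit to A36 to A39 mice turned the direction. There, 7 of 8 genes were lower in WT T1D, from −0.65 ± 0.29 for Gp6 to −0.33 ± 0.25 for Ppbp, and Gp9 was at 0.11 ± 0.17. None of the 8 passed (lowest adjusted p 0.0960, edgeR), while 15.4% of all genes did, and 4 of 8 had an unadjusted p under 0.05 against 32.3% of all genes. The 3 WT T1D mice of that set were A3905, A3906, and A3909, and A3909 was inside the range of the 4 controls for 7 of 8 genes and above them for Gp9 (103 CPM against 66.3 to 98.2). For 7 of 8 genes the direction of the diabetes comparison in WT bone thus differed with the libraries that entered it. Gp9 was above 0 in each of these edgeR fits.

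**Figure D3:**
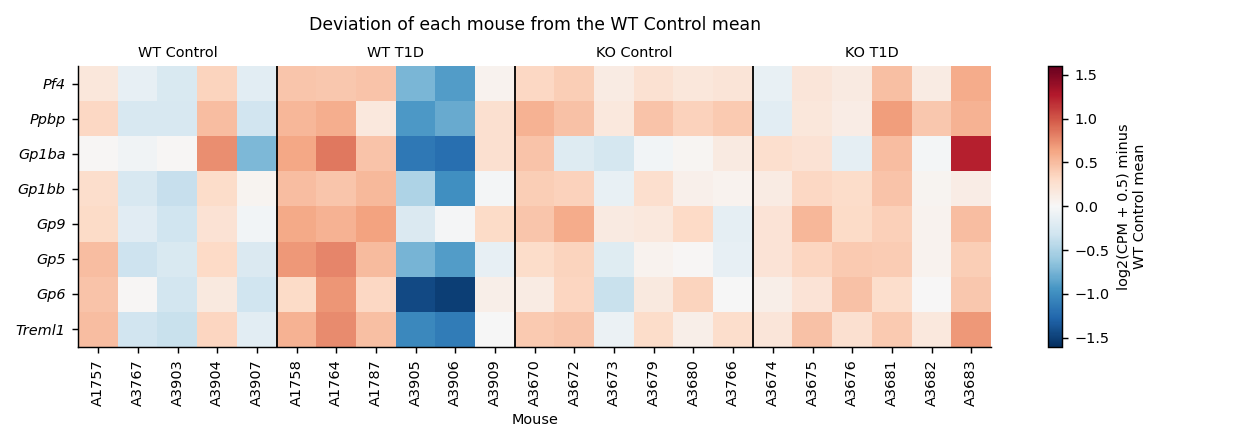
Deviation of each mouse from the WT Control mean of log2(CPM + 0.5), with genes in rows and mice in columns grouped by label. A3905 and A3906 are below the control mean in all 8 rows and nearest to it in the Gp9 row (−0.23 and −0.015). The A17 mice with T1D are red in all rows. The A17 control, A1757, is also above the control mean in all rows (0.014 to 0.50), as is control A3904 (0.16 to 0.74).

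In Sarm1-KO bone, 0 of 8 genes passed for KO T1D against KO Control, and 0.0% of all tested genes did (edgeR). With an unadjusted p under 0.05 the count was 0 of 8 genes, against 452 genes, or 3.15%, of all tested. Gp1ba had the highest log2 fold change (0.38 ± 0.31), followed by Gp5 (0.23 ± 0.23), Gp6 (0.14 ± 0.27), and Treml1 (0.13 ± 0.25). The chemokines were at 0.0053 ± 0.19 (Pf4) and −0.089 ± 0.22 (Ppbp), and the remaining subunits were at 0.049 ± 0.19 (Gp1bb) and 0.068 ± 0.15 (Gp9). The Gp1ba value leaned on A3683, and leaving out each mouse in turn gave 0.14 to 0.48. Leaving out A3905 and A3906, which are in neither group, moved none of the 8 values by more than 0.0056, and 0 of 8 had an unadjusted p under 0.05, against 4.15% of all genes.

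The test of whether T1D acted differently in the genotypes, the interaction, also passed for 0 of 8 genes and for 0.0% of all genes (edgeR). At an unadjusted p under 0.05, it held 0 of 8 genes and 1467 genes, or 10.2%, of all tested. Differences of the log2 fold changes, KO minus WT, ran from −0.26 ± 0.21 for Gp9 to 0.28 ± 0.44 for Gp1ba. Without A3905 and A3906, all 8 were below 0, from −0.45 ± 0.18 for Gp9 to −0.11 ± 0.33 for Gp1ba, and in the A36 to A39 mice 7 of 8 were above 0, up to 0.99 ± 0.46 for Gp1ba. On the TPM scale all 8 were above 0, from 0.11 to 0.68, with a median of 0.20 over all genes (limma). These fits had 0 of 8 genes past the threshold, against 0.0%, 0.0%, and 0.0139% of all genes in turn. An unadjusted p under 0.05 was reached by 1 of 8 without the pair (Gp9), against 4.66% of all genes. In the A36 to A39 mice it was reached by 4 of 8 (Gp1ba, Gp5, Gp6, and Treml1), against 22.3%.

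Between nondiabetic Sarm1-KO and WT bone, 0 of 8 genes differed past the test, which 0.0278% of all tested genes passed (edgeR). Ppbp had the largest difference (0.37 ± 0.23 on the log2 scale, a 1.29-fold higher level, adjusted p 0.999), then Gp9 (0.25 ± 0.15) and Pf4 (0.23 ± 0.20). Gp1ba was at −0.036 ± 0.32 and Gp5 at 0.039 ± 0.24. Both chemokines were above the WT Control mean in 6 of 6 KO Control mice. At an unadjusted p under 0.05 the count was 0 of 8, against 4.8% of all genes. Without A3905 and A3906, which are in neither group, the 8 values moved by at most 0.0023, but their SE was smaller (0.15 for Ppbp) because all groups share 1 estimate of the spread. In that fit 0 of 8 passed, against 0.0209% of all genes, and 1 of 8, Ppbp, had an unadjusted p under 0.05, against 6.57%.

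Between KO T1D and WT T1D bone, 0 of 8 genes differed past the test with all mice, which 0.0905% of all tested genes passed (edgeR, lowest adjusted p of the 8 0.585). An unadjusted p under 0.05 was reached by 0 of 8, against 17.1% of all genes. Log2 differences ran from −0.0078 ± 0.15 for Gp9 to 0.28 ± 0.27 for Gp6. In the A36 to A39 mice all 8 were above WT T1D in KO T1D, and 5 of 8 passed, where 10.7% of all genes passed and 5.63% passed as higher. At an unadjusted p under 0.05 it was 7 of 8, against 29.3% of all genes. The 5 were Gp6 (1.02 ± 0.27), Treml1 (1.01 ± 0.22), Gp5 (0.86 ± 0.17), Pf4 (0.71 ± 0.18), and Gp1bb (0.68 ± 0.18), with adjusted p from 0.00894 to 0.0263 (edgeR). No KO mouse in any fit had an ID starting with A17 or A39. In the A36 to A39 mice, every KO T1D ID started with A36 and every WT T1D ID with A39, so genotype and ID number could not be told apart. In that set 2 of the 3 WT T1D mice were A3905 and A3906, and without that pair all 8 were lower in KO T1D, from −0.20 ± 0.13 for Gp9 to −0.073 ± 0.16 for Ppbp, with 0 of 8 passing against 0.0278% of all genes, and with 0 of 8 against 6.47% at an unadjusted p under 0.05. On the TPM scale all 8 were above 0 with all mice, from 0.32 to 0.70 against a median of 0.17 over all genes, and 0 of 8 passed against 8.12% of all genes (limma, lowest adjusted p 0.120). This comparison shares its mice with the diabetes comparisons above, so the same libraries enter each.

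**Figure D4:**
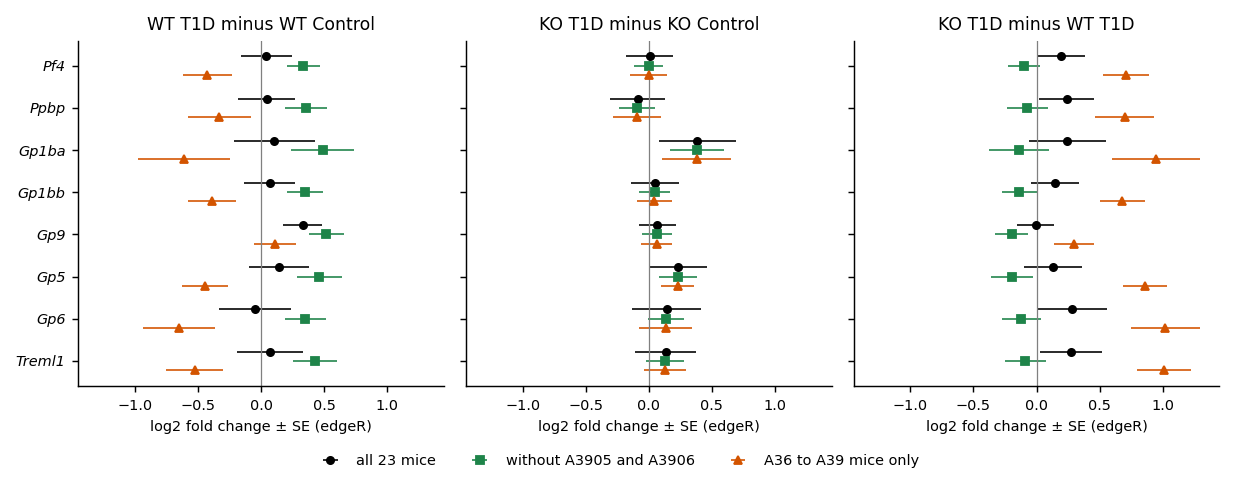
Log2 fold changes ± SE of the 8 genes for T1D in WT, T1D in KO, and KO T1D against WT T1D, in fits with all 23 mice, without A3905 and A3906, and with A36 to A39 mice only. The middle panel hardly moves between fits, whereas in both outer panels the fits without the pair and with A36 to A39 mice are on opposite sides of 0 for all genes except Gp9 in the left panel.

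The 8 genes varied together across mice. Pearson correlations of log2(CPM + 0.5) over the 23 mice ran from 0.61 for Gp1ba with Gp9 to 0.95 for Pf4 with Treml1, with a median of 0.845 over the 28 pairs. Without A3905 and A3906 they ran from 0.41 (Gp1ba with Gp1bb) to 0.90 (Gp5 with Treml1), with a median of 0.745. Treml1 followed the other 7 genes most closely (r = 0.98 with their mean, and 0.95 without the pair). Gp9 followed them least over all mice (r = 0.76) but not without the pair (0.84), when Gp1ba was the lowest (0.65). These points share library, depth, and scaling, and are given as a description.

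Ratios within a library do not depend on scaling between mice. Those of Gp9 to 5 of the other genes were outside the range of the other 21 mice for all 5 in A3906 and for 2 of 5, Gp6 and Treml1, in A3905. Gp6 stood at 0.0737 and 0.0463 of the Gp9 TPM in A3905 and A3906, against a median of 0.138 in the other 21 mice. On the log2 scale these ratios were −3.76 and −4.43, against −3.29 to −2.45 in the other mice. Treml1 to Gp9 was −1.32 and −1.47 on the log2 scale, against −0.93 to −0.25. Gp9 to Gp1ba was 2.11 and 2.24, against 0.59 to 2.12, Gp9 to Gp1bb 0.63 and 1.20, against 0.33 to 0.90, and Gp9 to Gp5 1.68 and 1.89, against 1.09 to 1.70. The ratio of Ppbp to Pf4 was within the range of the other mice (1.05 and 1.33, against 0.95 to 1.55). The genes were thus not lower by 1 common factor in these libraries, and the TPM table combined 6 transcripts for Gp9, so the transcript behind its counts is not known.

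The genes whose pattern over the 23 mice was most like the mean of the 8 were Nrgn (r = 0.96), Tubb1 (0.95), Mpig6b (0.95), Alox12 (0.95), F2rl2 (0.94), Rbpms2 (0.94), Gnaz (0.93), Gas2l1 (0.93), Itga2b (0.93), and Slc6a4 (0.93), out of 13299 genes ranked. Tubb1 is the β-tubulin of platelets, Alox12 the platelet lipoxygenase, F2rl2 a thrombin receptor, and Itga2b the α subunit of the fibrinogen receptor, and these 4 were also in the wider platelet lists below. Mpig6b is an inhibitory receptor of megakaryocytes, and Slc6a4 is the serotonin transporter that fills platelets. When ranked without A3905 and A3906, 5 of the 10 and 33 of the leading 50 were shared. These genes were chosen by the correlation, so their group means are only described. Tubb1 averaged 89.1 ± 20.05 CPM in WT Control and 107 ± 17.04 in KO Control, with 109 ± 47.2 for WT T1D and 118 ± 11.5 for KO T1D. Slc6a4 averaged 26.3 ± 4.71 CPM in WT Control and 35.5 ± 5.33 in KO Control, with 25.1 ± 13.6 for WT T1D and 37.1 ± 6.04 for KO T1D.

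A wider set of 62 platelet and megakaryocyte genes in 6 lists was tested in full. With T1D in WT bone 1 gene, Nfe2, was higher past the test and 0 were lower (edgeR), against 1.5% higher and 0.828% lower of all tested genes. The median log2 fold change of the 62 was 0.080 in WT bone, against −0.011 over all genes, and 0.097 in Sarm1-KO bone, against −0.0016. In Sarm1-KO bone, for the interaction, and for both genotype comparisons, 0 of 62 passed, against 0.0%, 0.0%, 0.0278%, and 0.0905% of all genes. At an unadjusted p under 0.05 it was 9 of 62 for T1D in WT (22.2% of all genes) and 0 for T1D in KO (3.15%). It was 2 for the interaction (10.2%), 1 for KO against WT in Control (4.8%), and 2 for KO against WT in T1D (17.1%).

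Of 12 megakaryocyte transcription factors, Nfe2, which drives late megakaryocyte maturation and is also active in erythroid cells, was 274 ± 41.3 CPM in WT Control and 392.2 ± 37.9 CPM in WT T1D. Its log2 fold change was 0.52 ± 0.11 (adjusted p 0.0331, edgeR), and without A3905 and A3906 it was 0.43 and no longer passed, as no gene did in that fit. Tal1 (0.57 ± 0.16, adjusted p 0.0514) and Gfi1b (0.53 ± 0.16, adjusted p 0.0637), both shared with the erythroid lineage, did not pass, and were at 0.34 and 0.24 without the pair. In A3905 and A3906, Nfe2, Tal1, Gfi1b, and Gata1 were above all of the other 21 mice, together with the erythroid markers, at 159% to 196% of the WT Control mean. Mef2c (30.8% of the WT Control mean) and Meis1 (54.5%) were below all of the other 21, and the remaining 6 factors were within their range or had only 1 mouse outside it. Of the 15 measured erythroid markers, 8 were higher past the test with T1D in WT with all mice, against 1.5% of all genes (edgeR). Without A3905 and A3906 none of these markers passed, as no gene did in that fit. The part of erythroid RNA in the transcription factor values was not tested.

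Of 5 genes for the thrombopoietin receptor and platelet integrins, 0 passed with T1D in WT. Itga2b was 209 ± 40.8 CPM in WT Control and 213 ± 81.9 CPM in WT T1D, and its log2 fold change was 0.031 ± 0.19. Its fibrinogen receptor partner Itgb3 was at 0.10 ± 0.14, and Itga6, a laminin receptor subunit, at 0.17 ± 0.16. Without the pair these were 0.30 for Itga2b, 0.28 for Itgb3, and 0.39 for Itga6. In A3905 and A3906, Itga2b (127 and 120.2 CPM) was below all other mice, as were most of the 8 genes.

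Of 12 platelet agonist receptor genes, 0 passed. Fcer1g, the signaling chain that pairs with GPVI and that other myeloid cells also use, was the most abundant at a mean of 1247 TPM and had a log2 fold change of 0.033 ± 0.13. Ptgir, the prostacyclin receptor, was at 0.19 ± 0.12, and Adra2a, an adrenergic receptor measured at a mean of 0.832 TPM, at −0.51 ± 0.35. Without the pair Fcer1g was at −0.041, Ptgir at 0.19, and Adra2a at −0.39. In the pair, 7 of these 12 genes were below all other mice and 0 were above, and Fcer1g was not among them at 646 and 549 CPM.

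Of 10 platelet granule genes, 0 passed. Thbs1, thrombospondin, was 554 ± 45.9 CPM in WT Control and 411 ± 199.97 CPM in WT T1D (−0.43 ± 0.24, adjusted p 0.291, edgeR), with 174 and 191 CPM in A3905 and A3906. Without the pair its log2 fold change was −0.078. F13a1, the factor XIII A chain, which macrophages also express, was at 0.42 ± 0.18, and Srgn, the granule proteoglycan serglycin, at 0.22 ± 0.13. Without the pair these were 0.10 and 0.14, and F13a1 in the pair (410 and 350.1 CPM) was above all of the other 21 mice.

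Of 11 proplatelet and cytoskeleton genes, 0 passed. Tubb1 was at 0.29 ± 0.23, Mylk, the myosin light chain kinase, at −0.32 ± 0.14, and Flna, filamin A, the most abundant of this list at a mean of 209 TPM, at −0.040 ± 0.071. Without the pair Tubb1 was at 0.60, Mylk at −0.081, and Flna at −0.037. Of 12 platelet signaling and eicosanoid genes, 0 passed, with Lat, an adaptor downstream of GPVI, at 0.25 ± 0.16, Mctp1 at 0.17 ± 0.14, and Rap1b, a small GTPase that activates integrins, at −0.0064 ± 0.085. Without the pair these were 0.44 for Lat, 0.095 for Mctp1, and 0.073 for Rap1b. Over the 6 lists, A3905 and A3906 were both below the other 21 mice for 23 of 62 genes (37.1%) and both above for 6 of 62 (9.68%), against 15.1% and 11.5% of all tested genes.

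Without A3905 and A3906, 51 of the 62 genes were higher and 11 lower with T1D in WT, with a median of 0.20 and 0 of 62 passing, against 0.0% of all genes. An unadjusted p under 0.05 was reached by 24 of 62 in that fit, against 11.0% of all genes (edgeR). Here too the pair left out was below the other 21 mice for 23 of the 62 genes. In the A36 to A39 mice, 24 were higher and 38 lower, with a median of −0.11, and 9 passed, of which 5 were higher and 4 lower, where 7.76% of all genes passed as higher and 7.6% as lower. The 5 were Nfe2, Tal1, Gfi1b, Gata1, and F13a1, from 0.64 to 0.82, and the 4 were Itga2b, Mylk, Mef2c, and Thbs1, from −0.46 to −1.06. Of these 9, only Itga2b had the opposite sign without the pair. For KO T1D against WT T1D in those mice, 19 of 62 passed as higher and 2 as lower (5.63% and 5.08% of all genes), with a median of 0.25, whereas without the pair 0 of 62 passed and the median was −0.051. As above, genotype and ID number could not be told apart in the A36 to A39 mice of that comparison. The medians of the 62 genes thus had opposite signs in these fits, as the 8 genes did apart from Gp9 with T1D in WT, while 8 of the 9 genes that passed with T1D in WT did not turn.

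**Figure D5:**
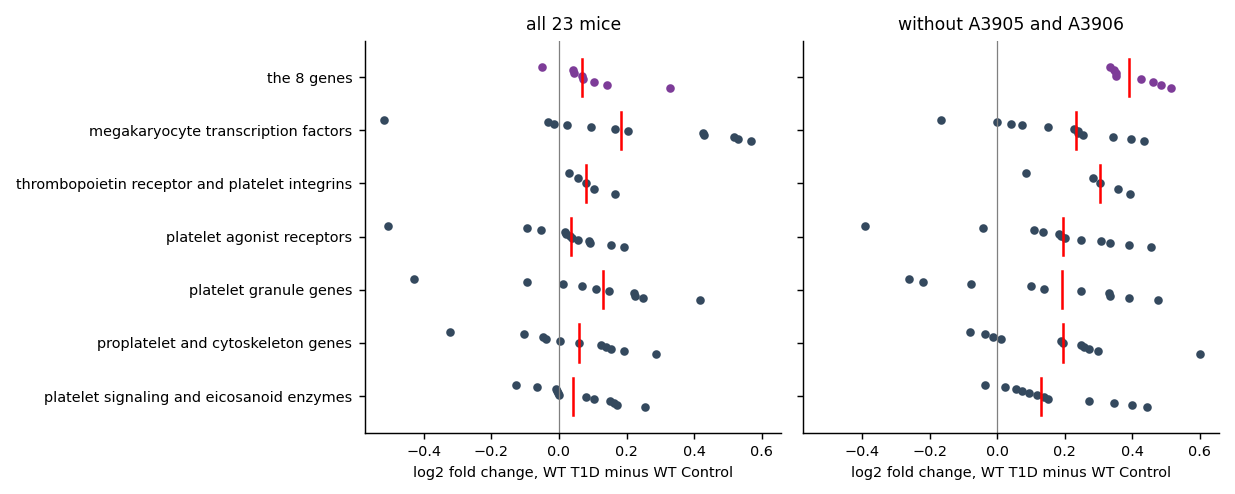
Log2 fold changes of WT T1D against WT Control for the 8 genes and for the 62 genes of the 6 wider lists, with 1 point per gene and a red line at each median, for all mice and without A3905 and A3906. The median of the 8 genes is 0.069 in the left panel and 0.39 in the right panel, and all 6 wider medians are above 0 in both panels.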

How the data were processed

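RNA-Seq values of 23 female mice were used, 1 library each, from femur and tibia after marrow removal, and groups came from the labels. The authors deposited expected counts per gene from RSEM as whole numbers without normalization, and TPM values per transcript length from the sequencing provider. Both came from oligo dT libraries with paired-end DNBSEQ reads, which SOAPnuke had filtered, with HISAT and Bowtie2 used for alignment (GRCm38.p6). Filtering, alignment, and the assignment of reads shared between genes are part of these values.

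The 14364 genes that reached 10 counts in 5 or more mice were tested in R 4.3.3 with edgeR 4.0.16 (TMM factors, quasi-likelihood test, 1 model with a mean for each of the 4 groups), with Benjamini-Hochberg adjustment over all of them. SE was the log2 fold change divided by the square root of F. The alternatives used DESeq2 1.42.0, limma 3.58.1 on log2(TPM + 1) and log2(TPM + 0.1), other scaling, filters, and samples, and leaving out each mouse. Python 3.11.15 was used for summaries (pandas 2.3.3 and numpy 2.4.6) and figures (matplotlib 3.10.9). The fits were tested on simulated data.

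Named genes were all 8 genes, Sarm1, the 10 genes with at least 1 CPM most correlated with their mean z score, and, from each wider list, genes past the threshold, the most abundant gene, and the 2 whose log2 fold change for WT T1D was largest. Septin5, Gata1, Mef2c, Meis1, and the genes passing with A36 to A39 mice were named after their values were seen. The 8 genes and all lists were chosen with earlier results of these data known. Replicates are separate mice. Groupmates differed beyond sampling noise in all 55 pairs (chi-square per gene 10.9 to 187), so each counts as 1 replicate. Promoter sequence and positions came from RefSeq tables of GRCm38.p6, in which 8 of 8 genes matched. No protein sequence was used here.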

Additional observations from a re-analysis of the deposited data

Results flagged for a closer look

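In KO T1D, Gp1ba stood at 196 CPM in mouse A3683, far above the next mouse of the group at 117 CPM, with a gap of 0.651 of the group's range, over Dixon's 95% critical value of 0.625 for 6 mice. It was the only 1 of 32 combinations of gene and group in which a mouse stood apart by this measure, and chance alone flags about 1 in 20 groups. The measure takes the gap to the nearest mouse, so it misses mice that lie together at 1 end. This was so for Gp6 in WT T1D, at 8.94 CPM in A3905 and 8.56 CPM in A3906 against 26.9 CPM in A3909. In A3683, Pf4 was also the highest of all 23 mice at 207 CPM and Treml1 the highest of KO T1D at 96.6 CPM, while Gp1bb at 109 CPM and Gp9 at 117 CPM were within the range of the other KO T1D mice.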

How the results depend on the processing

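The count of the 8 genes past the threshold was 0 in each of the 5 comparisons, and it stayed at 0 in 43 of 44 alternatives and in all 115 fits that left out 1 mouse. The exception was KO against WT in T1D with A36 to A39 mice only, where 5 genes passed and where genotype and ID number could not be told apart. No paired analysis was possible because the labels give mouse IDs that are not shared between groups and no replicate numbers. A fit with only the groups of the comparison gives no interaction. Log2 fold changes had the opposite sign in 62 of 352 alternatives, and kept their sign for all 8 genes with DESeq2, other scaling, and no filter on low counts. With log2(TPM + 1) the median of all genes was −0.24 for T1D in WT, 0.20 for the interaction, and 0.17 for KO against WT in T1D. In the main edgeR fit these medians were −0.011, 0.0059, and 0.0062. Relative to the TPM median, T1D in WT was −0.27 for Gp6, 0.18 for Gp9, and −0.10 to −0.0041 for the others. With log2(TPM + 1), and equally with every gene that had a TPM, the values of opposite sign for T1D in WT were Pf4 −0.32, Ppbp −0.32, Gp1ba −0.31, Gp1bb −0.29, Gp9 −0.065, Gp5 −0.24, and Treml1 −0.34. For T1D in KO they were Pf4 −0.063. For the interaction they were Pf4 0.26, Ppbp 0.16, Gp1bb 0.30, and Gp9 0.11. For KO against WT in T1D they were Gp9 0.32. With log2(TPM + 0.1), those for T1D in WT were Pf4 −0.32, Ppbp −0.32, Gp1ba −0.32, Gp1bb −0.30, Gp9 −0.066, Gp5 −0.25, and Treml1 −0.35. For T1D in KO they were Pf4 −0.064. For the interaction they were Pf4 0.26, Ppbp 0.16, Gp1bb 0.31, and Gp9 0.12. For KO against WT in T1D they were Gp9 0.32. With A36 to A39 mice, those for T1D in WT were Pf4 −0.43, Ppbp −0.33, Gp1ba −0.61, Gp1bb −0.39, Gp5 −0.45, and Treml1 −0.53. For T1D in KO they were Pf4 −0.00088. For the interaction they were Pf4 0.43, Ppbp 0.24, and Gp1bb 0.44. For KO against WT in T1D they were Gp9 0.30. Without A3905 and A3906, those for T1D in WT were Gp6 0.35. For the interaction they were Gp1ba −0.11, Gp5 −0.23, Gp6 −0.21, and Treml1 −0.30. For KO against WT in T1D they were Pf4 −0.10, Ppbp −0.073, Gp1ba −0.14, Gp1bb −0.14, Gp5 −0.19, Gp6 −0.12, and Treml1 −0.089. Leaving out each mouse in turn, the values that crossed 0 ranged for T1D in WT from −0.056 to 0.19 for Pf4, from −0.081 to 0.19 for Ppbp, from −0.077 to 0.33 for Gp1ba, from −0.039 to 0.22 for Gp1bb, from −0.018 to 0.29 for Gp5, from −0.26 to 0.14 for Gp6, and from −0.10 to 0.24 for Treml1. They ranged for T1D in KO from −0.073 to 0.063 for Pf4, from −0.0060 to 0.10 for Gp1bb, and from −0.0034 to 0.13 for Gp9. They ranged for the interaction from −0.19 to 0.054 for Pf4, from −0.18 to 0.082 for Gp1bb, from −0.068 to 0.25 for Gp5, from −0.00076 to 0.40 for Gp6, and from −0.11 to 0.23 for Treml1. They ranged for KO against WT in Control from −0.18 to 0.20 for Gp1ba and from −0.041 to 0.18 for Gp5. They ranged for KO against WT in T1D from −0.0075 to 0.24 for Gp1bb, from −0.11 to 0.052 for Gp9, and from −0.021 to 0.29 for Gp5. Of all tested genes, 6.98% passed for T1D in WT with DESeq2, 35.9% with limma on log2(TPM + 1), and 0.489% with no filter, against 2.33%. Beyond the sets of libraries and the TPM scale named here, the cause of these changes was not tested. Depth was not limiting for the 8 genes, which had 148 or more counts in every mouse, whereas Sarm1 had 5 to 32.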
